A study of Arabidopsis thaliana with 12 samples.

Results

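The kinesin genes described here, each measured by a feature of its own on an Arabidopsis thaliana array, are AT4G14330 (the PAKRP2 gene), AT3G20150, AT2G37420 and AT1G21730. These 4 genes were chosen by locus from 691 loci that had a feature to themselves on an array of 3439 features, with their values in the pam46 and WT samples already known. The levels and differences below are therefore a description of those values and carry no test. One more kinesin gene with its own feature, AT3G44050, was not among those chosen. It was found by matching a list of 60 other kinesin loci to the array, and it was tested.

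Total RNA was measured in 6 samples of the pam46 mutant and 6 WT samples, both of ecotype Columbia 0. The labels describe pam46 as altered in its photosynthesis, through a defect in a protein they call unknown. None of the sources used here gives the mutated gene, the allele, the tissue, the plants' age or the growth conditions. The submitters numbered the samples of each group 1 to 6, and samples with consecutive numbers (1 and 2, 3 and 4, 5 and 6) deviated together, as did the same number in both groups. Whether samples are separate plants or repeat readings is not stated, so the errors and p-values cover only the spread of these samples, part of which may be technical. They also treat consecutive numbers as independent, and can be too small.

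Kinesins are motor proteins that use ATP to move along microtubules or to change their ends. Plants lack cytoplasmic dynein and carry many kinesins, which build the spindle, move vesicles and position organelles. In dividing plant cells a microtubule array called the phragmoplast guides Golgi-derived vesicles to the growing cell plate, and several kinesins work there. PAKRP2, for phragmoplast-associated kinesin-related protein, sits on vesicles in that array. AT3G20150 belongs to the kinesin-12 class, other members of which act in the phragmoplast or at the division plane. AT2G37420 belongs to the kinesin-5 class, whose motors slide antiparallel spindle microtubules apart. AT1G21730 encodes MKRP1, a kinesin with a mitochondrial targeting sequence. The class and role of each locus are general knowledge and do not come from the array's annotation.

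The 4 kinesin features had low to middling intensities, between the 2.31 and 63.3 percentiles of the array they were read on. Summed intensity was 3290 to 3644 per array, with values from 0 to a cap of 100, and median intensity was 0.199 to 0.226 in pam46 samples and 0.296 to 0.341 in WT samples. A feature that keeps a rank near the middle of the array is then lower in pam46 as deposited. Each member is therefore given on the deposited scale and on a quantile-normalized log2 scale, in which all arrays share 1 distribution and values under a floor of 0.0277 are raised to it (-5.18 on the log2 scale). Over all 3438 genes or features fitted, the median log2 difference, pam46 minus WT, was 0 on the normalized scale and -0.36 as deposited. With bulk RNA, more cells of a type and more RNA per cell cannot be told apart.

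In pam46 samples the gene of the phragmoplast kinesin PAKRP2 and the kinesin-12 gene AT3G20150 were higher than in WT samples, while the kinesin-5 gene AT2G37420 and the gene of the mitochondrial kinesin MKRP1 were lower. On the normalized scale the log2 differences were 2.32, 1.32, -0.43 and -0.57 in that order. AT4G14330 (PAKRP2, feature 3612) had deposited intensities of 0.0363, 0.0908, 0.160, 0.234, 0.219 and 0.260 in pam46 samples 1 to 6, against 0, 0.0208, 0.0499, 0.0515, 0.0714 and 0.117 in WT samples 1 to 6. It was higher in pam46 in 6 of 6 same-numbered comparisons, yet the groups overlapped, because pam46 samples 1 and 2 lay below WT sample 6. The mean was 0.167 ± 0.0881 in pam46 and 0.0517 ± 0.0406 in WT (SD, n = 6 each), a ratio of 3.22. A higher value in pam46 for all 6 numbers was seen in 12.3% of all features on the deposited scale.

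On the normalized scale AT4G14330 was at -2.47 ± 0.99 in pam46 and -4.79 ± 0.45 in WT (SD, n = 6 each). The fitted log2 difference was 2.32 ± 0.42 (SE), a 5.0-fold higher level in pam46, and 31 of 3438 features had a larger one. WT samples 1 and 2 stood at the floor, so the size of this difference depends on where the floor lies. It was 3.09 with the floor at the 1st percentile of positive values, and 0.96 with the floor at the 20th. As deposited the log2 difference was 1.41 ± 0.52 (SE). That value too was fitted after a floor at the 5th percentile of positive values, and WT sample 1, deposited at 0, was raised to it. The intensities of AT4G14330 lay between the 13.5 and 54.9 percentiles of the pam46 arrays, against 2.31 to 15.7 on the WT arrays.

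AT3G20150 (feature 149), of the kinesin-12 class, had deposited intensities of 0.0788, 0.172, 0.258, 0.200, 0.170 and 0.161 in pam46 samples 1 to 6, against 0.0911, 0.0848, 0.109, 0.0733, 0.133 and 0.152 in WT samples 1 to 6. It was higher in pam46 in 5 of 6 same-numbered comparisons, and number 1 ran the other way. The value of pam46 sample 1 was the single one of its group within the WT range. The mean was 0.173 ± 0.0583 in pam46 and 0.107 ± 0.0302 in WT (SD, n = 6 each), a ratio of 1.62.

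After normalization the AT3G20150 groups did not overlap, with -3.24 to -1.58 in pam46 and -4.19 to -3.38 in WT. Among all features 10.7% were higher in pam46 without overlap on this scale. The fitted log2 difference was 1.32 ± 0.25 (SE), a 2.50-fold higher level in pam46, against 0.66 ± 0.27 as deposited. No sample of this gene stood at the floor, and 246 of 3438 features had a larger difference.

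**Figure D1:**
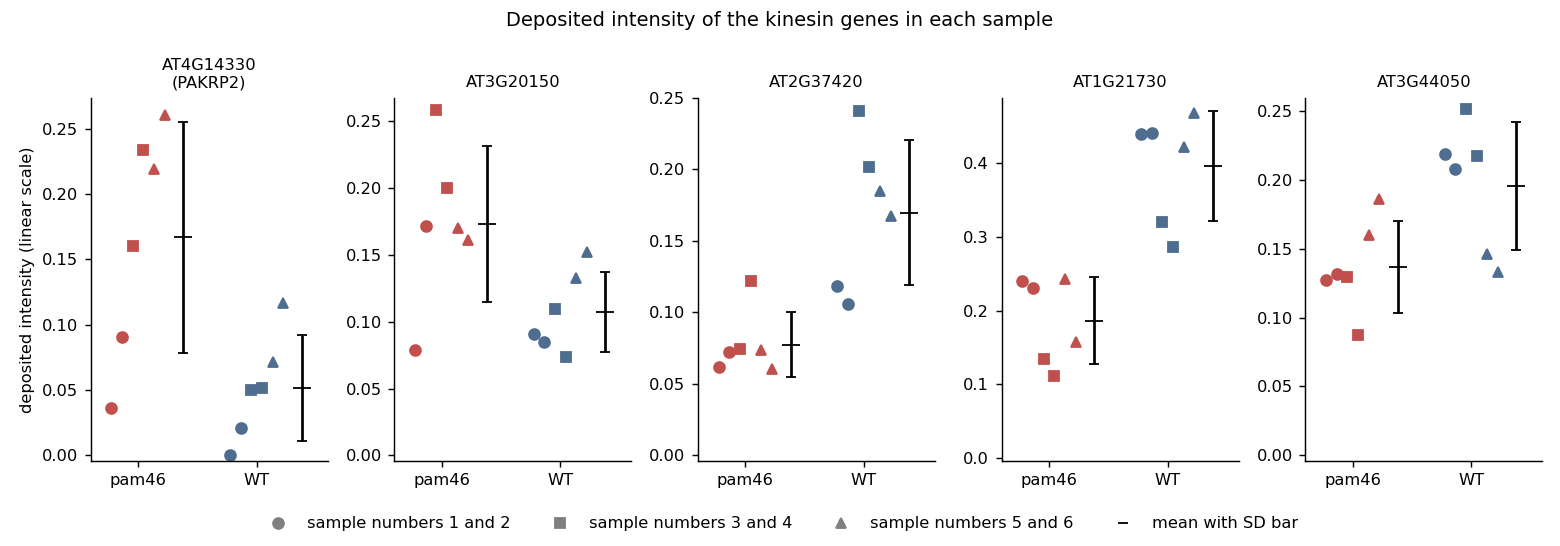
Deposited intensity (linear scale, vertical axis) of the 4 kinesin genes and AT3G44050 in each pam46 and WT sample; symbols mark sets of consecutive sample numbers, and the bar beside each group is its mean with SD. AT4G14330 and AT3G20150 lie higher in most pam46 samples, while AT2G37420 and AT1G21730 lie lower, with no overlap for AT1G21730.

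AT2G37420 (feature 1088), of the kinesin-5 class, had deposited intensities of 0.0616, 0.0723, 0.0744, 0.122, 0.0732 and 0.0602 in pam46 samples 1 to 6, against 0.119, 0.106, 0.241, 0.201, 0.185 and 0.167 in WT samples 1 to 6. It was lower in pam46 in 6 of 6 same-numbered comparisons, as were 38.4% of all features. The groups overlapped only because pam46 sample 4 lay above WT samples 1 and 2. The mean was 0.0773 ± 0.0226 in pam46 and 0.170 ± 0.0510 in WT (SD, n = 6 each), a ratio of 0.455.

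The difference was smaller after normalization. On the normalized scale AT2G37420 was at -3.32 ± 0.42 in pam46 and -2.89 ± 0.39 in WT (SD, n = 6 each), and the fitted log2 difference was -0.43 ± 0.23 (SE), against -1.12 ± 0.23 as deposited. Among all features 28.7% had a lower difference. The normalized value was lower in pam46 in 6 of 6 same-numbered comparisons, which held for 21.9% of features, although the group ranges overlapped.

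AT1G21730 (feature 3521), the gene of the mitochondrial kinesin MKRP1, had deposited intensities of 0.241, 0.231, 0.134, 0.111, 0.242 and 0.158 in pam46 samples 1 to 6, against 0.440, 0.442, 0.321, 0.286, 0.422 and 0.469 in WT samples 1 to 6. Every pam46 value lay below every WT value, as for 23.6% of all features on this scale. The mean was 0.186 ± 0.0589 in pam46 and 0.396 ± 0.0745 in WT (SD, n = 6 each), a ratio of 0.469. In both groups samples 3 and 4 were the 2 lowest.

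After normalization AT1G21730 was at -2.16 ± 0.40 in pam46 and -1.59 ± 0.25 in WT (SD, n = 6 each). The groups then overlapped, since pam46 samples 1, 2 and 5, at -1.79, -1.83 and -1.79, came above WT sample 4 at -1.98. The fitted log2 difference was -0.57 ± 0.19 (SE), a 1.49-fold lower level in pam46, and 23.6% of features had a lower one. As deposited it was -1.13 ± 0.22.

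**Figure D2:**
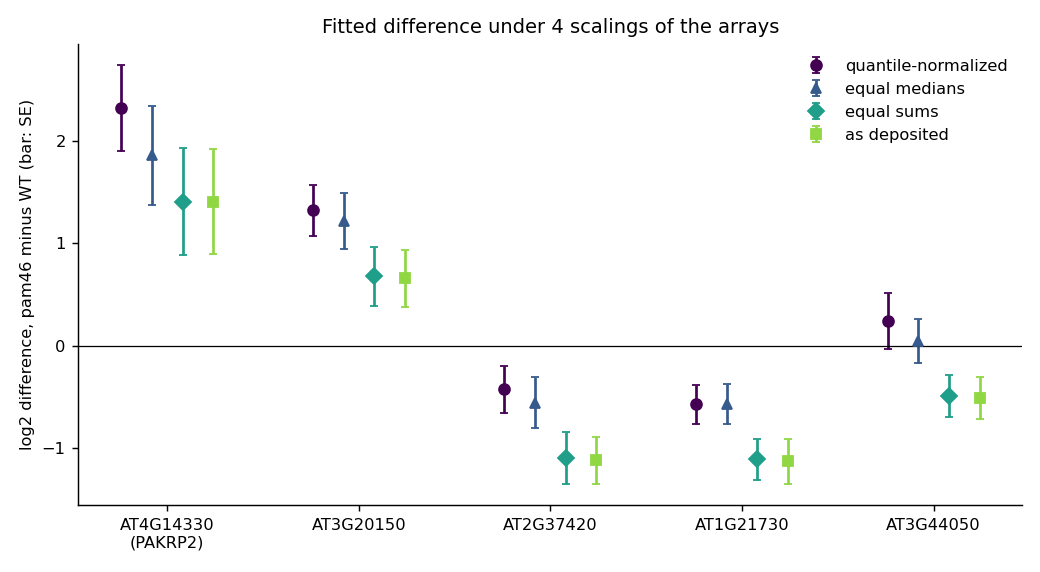
Fitted log2 difference, pam46 minus WT (vertical axis, bars are SE), of each kinesin gene under 4 scalings of the arrays. The 4 members keep their sign under each scaling, from 1.41 to 2.32 for AT4G14330 and from -1.13 to -0.57 for AT1G21730, while AT3G44050 runs from -0.52 to 0.24.

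Across the 3 sets of consecutive sample numbers the direction of each member was the same. This is a description, since the members were chosen with these values known. The share of all features with the same direction in all 3 sets was not computed. The normalized difference of AT4G14330 was at least 1.54 in numbers 1 and 2, where both WT samples stood at the floor, 2.84 in numbers 3 and 4, and 2.59 in numbers 5 and 6. For AT3G20150 the values were 0.67, 2.09 and 1.21 in the same order. The first value of AT4G14330 depends on the floor and cannot be ranked against its other values. AT2G37420 stood at -0.31, -0.45 and -0.53, and AT1G21730 at -0.38, -0.68 and -0.66. Samples of a group within a set varied with an SD of 0.46 for AT4G14330 and 0.38 for AT3G20150, and of 0.20 for AT2G37420 and 0.21 for AT1G21730. The 2 genes that were higher in pam46 thus also had the larger spread within sets. For AT4G14330 this SD depends on the floor, since WT samples 1 and 2 both stood there and added no spread.

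**Figure D3:**
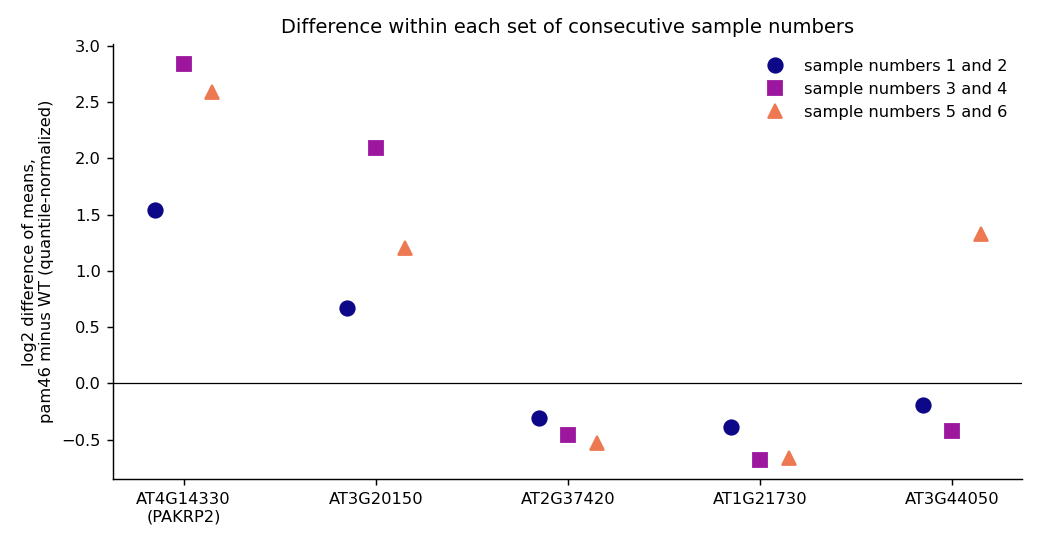
Normalized log2 difference of means, pam46 minus WT (vertical axis), within each set of consecutive sample numbers for the 4 kinesin genes and AT3G44050. The point of AT4G14330 for numbers 1 and 2 is a lower bound, set by the floor. All 3 points lie above 0 for AT4G14330 and AT3G20150 and below 0 for AT2G37420 and AT1G21730, while those of AT3G44050 lie on both sides.

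The fit across all features (limma, Benjamini-Hochberg adjustment, threshold 0.05) placed 3 of the 4 members past its threshold, AT4G14330 and AT3G20150 higher and AT1G21730 lower, where 41.1% of all features passed (19.5% higher and 21.6% lower). With consecutive numbers averaged, 3 against 3, it placed AT4G14330 and AT3G20150 past it, where 17.1% of all features passed. With a random block for consecutive numbers these 2 genes passed as well, where 26.7% of all features did. With the sample number as a block 4 of 4 passed, where 48.2% of all features did. With that block on the averages AT4G14330 alone passed, 1 of 4, where 20.2% of all features did. Nothing is read from these counts, because the genes were chosen with this contrast known. The plot of all features shows AT4G14330 in the upper tail, AT3G20150 on the upper slope, and the other members within the bulk of features.

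**Figure D4:**
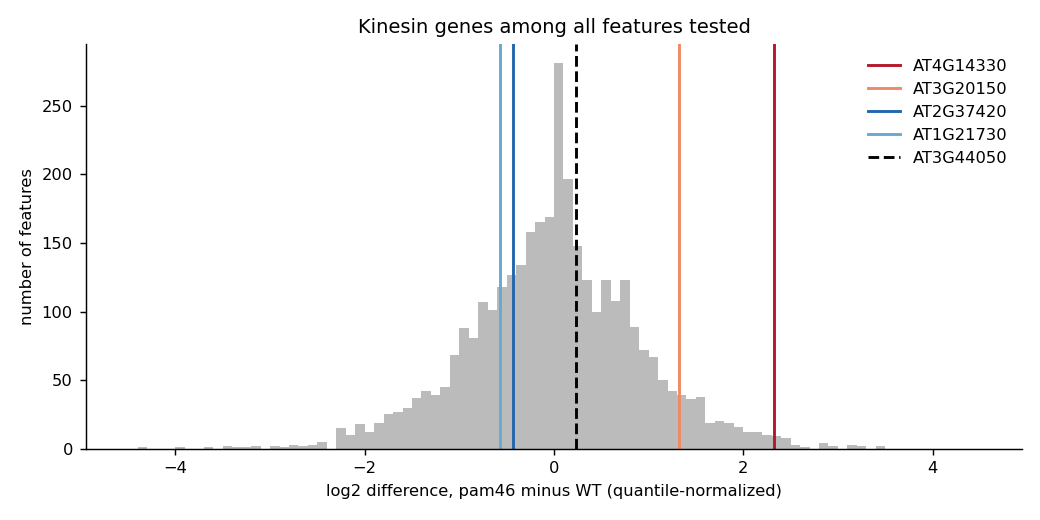
Number of features (vertical axis) by fitted log2 difference, pam46 minus WT, on the quantile-normalized scale (horizontal axis), with a line at the value of each kinesin gene. AT4G14330 at 2.32 has 31 of 3438 features above it, and AT2G37420 at -0.43 lies inside the bulk.

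AT3G44050 (feature 3951), also of the kinesin-12 class, did not pass the test across all features. It had deposited intensities of 0.128, 0.131, 0.129, 0.0872, 0.160 and 0.186 in pam46 samples 1 to 6, against 0.219, 0.208, 0.251, 0.217, 0.146 and 0.133 in WT samples 1 to 6. It was lower in pam46 for numbers 1 to 4 and higher for numbers 5 and 6. The mean was 0.137 ± 0.0334 in pam46 and 0.196 ± 0.0462 in WT (SD, n = 6 each). On the normalized scale the log2 difference was 0.24 ± 0.27 (SE, limma adjusted p = 0.532), and its sign turned as deposited (-0.52, adjusted p = 0.0572) and with equal sums (-0.50, adjusted p = 0.0682). Within sets of consecutive numbers it was -0.19, -0.42 and 1.32, so numbers 5 and 6 alone gave the pooled value its sign. The difference between AT3G44050 and AT3G20150 was not tested.

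Another 7 features are annotated with a kinesin locus together with 1 or 2 other loci, and none of them can be given to a single gene. They were collected from the annotation by locus name, after the array had been seen. A shared feature that names a kinesin by gene symbol alone would be missed. In the fit across all features 0 of the 7 passed (limma adjusted p from 0.0780 to 1), where 41.1% of all features did. An unadjusted p under 0.05 was seen for 1 of 7. A block on sample number let 2 of 7 pass, where 48.2% of all features did. Feature 4181, whose 3 loci include AT2G37420 and are all of the kinesin-5 class, had deposited intensities of 0.140, 0.125, 0.297, 0.339, 0.353 and 0.387 in pam46 samples 1 to 6, against 0.121, 0.0440, 0.133, 0.458, 0.242 and 0.238 in WT samples 1 to 6. It was higher in pam46 for every number except 4, and the groups overlapped. Its normalized difference was 1.09 ± 0.46 (SE, limma adjusted p = 0.0780), whereas the feature of AT2G37420 alone was at -0.43. For feature 4181 the limma adjusted p was 0.0137 with the sample number as a block, and 0.0365 with that block on averaged consecutive numbers. It was 0.219 with consecutive numbers averaged and no block, and 0.274 with a random block for consecutive numbers.

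Feature 1589, annotated with AT1G21730 and 2 further kinesin loci, also differed in sign from its single-gene counterpart, and neither difference between features was tested. Its deposited intensities were 0.125, 0.143, 0.265, 0.173, 0.258 and 0.210 in pam46 samples 1 to 6, against 0.0667, 0.0848, 0.189, 0.180, 0.371 and 0.320 in WT samples 1 to 6. As deposited it was higher in pam46 for numbers 1 to 3 and lower for numbers 4 to 6. The normalized difference was 0.63 ± 0.34 (SE, limma adjusted p = 0.161), against -0.57 for the feature of AT1G21730 alone. For feature 1589 the limma adjusted p was 0.0356 with the sample number as a block, and 0.173 with that block on averaged consecutive numbers. It was 0.408 with consecutive numbers averaged and no block, and 0.260 with a random block for consecutive numbers. Of the other 5 shared features, feature 2926 was at 0.12 ± 0.18, feature 2826 at 0.56 ± 0.33 and feature 1859 at 0.51 ± 0.87. Features 1554 and 4476 stood at the floor in 11 and 12 of 12 samples.

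**Figure D5:**
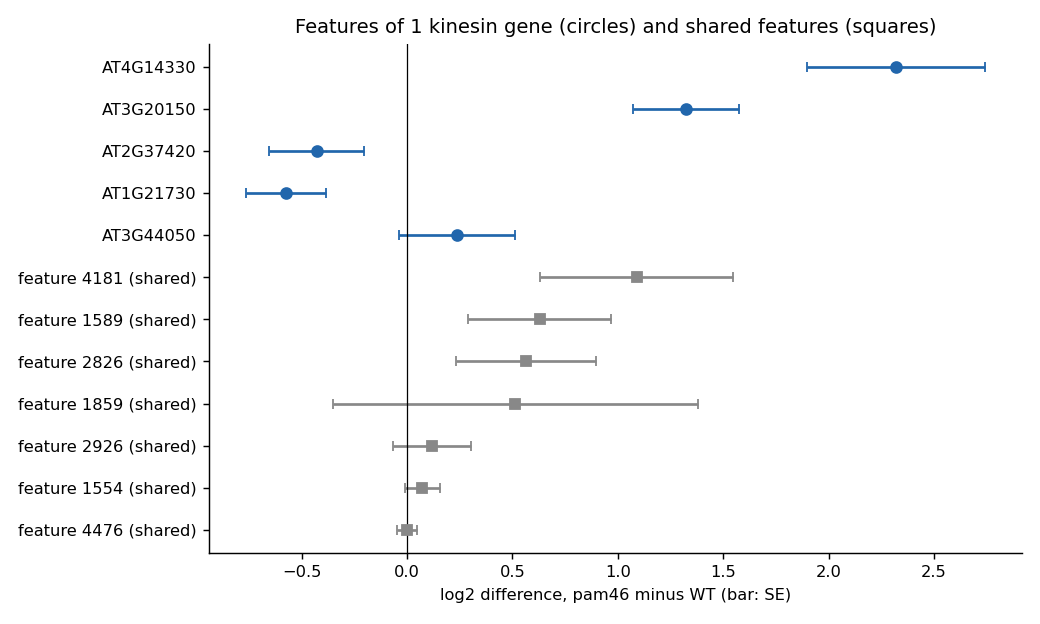
Fitted log2 difference, pam46 minus WT, on the quantile-normalized scale (horizontal axis, bars are SE) for features of 1 kinesin gene (circles) and features shared by several loci (squares). The shared features run from 0 to 1.09 and overlap the range of single-gene features, -0.57 to 2.32, without values as high as AT3G20150 or AT4G14330.

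Patterns across the 12 samples were compared as a description, and the points share the grouping and the sets of consecutive numbers. AT4G14330 and AT3G20150 had a Pearson r of 0.89 across the 12 normalized values, and 0.59 across deviations from the group means. AT4G14330 and AT1G21730 had -0.76, and -0.48 across deviations. AT2G37420 and AT1G21730, both lower in pam46, had -0.09 across the 12 values and -0.68 across deviations: samples 3 and 4 were the highest for AT2G37420 and the lowest for AT1G21730 in both groups.

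Among 615 single-gene features above the floor in at least 9 of 12 samples, those most like AT4G14330 by r across the 12 samples were AT3G56810 (0.96), AT3G61870 (0.95) and AT3G56330 (0.94). Those most like AT3G20150 were AT5G65490 (0.92), AT3G20490 (0.90) and AT3G56330 (0.89), so AT3G56330 was named for both. AT2G37420 had its highest values with AT3G15490 (0.85), AT3G47980 (0.80) and AT5G44150 (0.79). AT1G21730 had them with AT3G26730 (0.91), PSBY (0.89), which encodes a small photosystem II subunit, and AT2G05120 (0.89). Across deviations from the group means r in these pairs was 0.54 to 0.88. These names depend on the scaling, and 2 to 6 of the 12 pairs came out again under the other scalings and floors.

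Lists of genes that work with kinesins were matched to the array as well. Tubulins and microtubule proteins (47 loci), cytokinesis (19), cell cycle (93), actin and myosin (290), organelle division and movement (77) and mitochondrial import and morphology (12) had 0 members with a feature of their own. None of 6 markers of dividing cells, KNOLLE and B-type cyclins among them, had one either. The share of dividing cells in the samples could therefore not be read beside the kinesin values, and its part in them was not tested. Markers of mesophyll, guard cells, roots, seeds and flowers were likewise without a feature of their own, and no tissue label could be checked.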

How the data were processed

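The authors' deposited values are spot intensity values on a linear scale; none of the sources used here names the array type, the background correction or any normalization before deposit. The members and gene lists were chosen with earlier results of these data known. Of 3439 features, GEO's annotation names 1 gene for 692, several for 870 and none for 1877; 690 of the 692 matched RefSeq loci (TAIR10.1, names only). A locus with more than 1 feature kept the brighter, leaving 3438. Arrays were quantile-normalized, because their medians differed by up to 1.71 times, floored at the 5th percentile of positive values and log2-transformed. The pam46 minus WT difference was fitted with limma 3.58.1 (R 4.3.3, two-sided, Benjamini-Hochberg over all features, threshold 0.05). This fit was checked on simulated data with independent samples, so the check does not cover the dependence between consecutive numbers. No read depth exists for arrays, and their number limits precision. Deviations from group means, correlated over features, gave r of 0.24 to 0.57 for the same number in both groups, 0.26 to 0.67 for consecutive numbers and -0.58 to -0.19 for other samples of a group. By this check samples of the same number in both groups deviated together, though the meaning of the numbers is unlabelled. Different numbers were not compared across groups, so the check cannot tell pairing by number from shared sets of consecutive numbers. Genes were named as members, list genes with their own feature, and the 3 features most like each member. Alternatives were other scalings, other floors, a filter on dim features, averaging or blocking of sample numbers, and leaving out each sample. The other scalings, values as deposited among them, were also floored at the 5th percentile of their positive values before log2. No nucleotide or protein sequences were used here.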

Additional observations from a re-analysis of the deposited data

Results flagged for a closer look

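A sample was picked out in a group of 6 where it stood apart by Dixon's ratio, the gap to its neighbour over the whole range, at a critical value of 0.625. This happened in 2 of 21 kinesin groups with any spread, and chance alone picks about 1 in 20. For AT4G14330, WT sample 6 was at -3.94 (normalized log2), and the other WT samples were at -5.18 to -4.79. WT samples 1 and 2 stood at the floor, which shortens the range, so this pick can depend on where the floor lies. Without WT sample 6 the difference, pam46 minus WT, was 2.49. For feature 1554, shared by several kinesin loci, pam46 sample 6 was at -4.74 and the other pam46 samples stood at the floor of -5.18, so any value above the floor would be picked out.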

How the results depend on the processing

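All 4 members kept their direction in each of the 22 alternatives. The dim filter, averaging and blocking settings left the fitted difference unchanged and changed only its SE, so they could not alter a direction. The members were chosen with this contrast known, so this is a description. As deposited the differences were 1.41 (AT4G14330), 0.66 (AT3G20150), -1.12 (AT2G37420) and -1.13 (AT1G21730), and with equal sums 1.41, 0.68, -1.10 and -1.11. These moved by more than the SD within groups, and the median of all features was -0.36 and -0.34 on these scales. The cause was not tested. A floor at the 20th percentile put AT4G14330 at 0.96. Without 1 sample the differences ran from 2.17 to 2.67 (AT4G14330), 1.18 to 1.52 (AT3G20150), -0.57 to -0.31 (AT2G37420), -0.65 to -0.47 (AT1G21730) and 0.059 to 0.35 (AT3G44050). AT3G44050 turned sign as deposited (-0.52) and with equal sums (-0.50) and passed in no alternative (adjusted p from 0.0572 to 0.907); with the sample number as a block its adjusted p was 0.581, and the list genes called stayed at 0. The count of 1413 features past the threshold (669 higher, 744 lower) was 588 with consecutive numbers averaged, 695 with these averages and the replicate block, 919 with a random block for consecutive numbers (correlation 0.614), 1656 with the replicate block and 1315 to 1390 without 1 sample; the averages have fewer samples, and the cause was not otherwise tested. The split was 900 higher and 641 lower with equal medians, 382 and 1274 after scaling to equal sums, and 373 and 1301 as deposited. Of the 7 shared features 2 passed with the replicate block (features 4181 and 1589), 1 with averaging and the block (feature 4181), and 0 to 1 without 1 sample, the 1 being feature 4181 without WT sample 4. Of the 12 likeness pairs, 5 came out again as deposited, 5 with equal sums, 6 with equal medians, 6 after lowering the floor to the 1st percentile and 2 after raising it to the 20th; the cause was not tested. AT1G21730 was not past the threshold without any 1 of pam46 samples 3, 4 and 6 or WT samples 1, 2, 5 and 6, and AT2G37420 passed it without pam46 sample 4. As deposited AT2G37420 was past it and AT3G20150 was not, where 1674 of 3438 features were. The same held with equal sums, where 1656 were. Without 1 sample 1315 to 1390 of 3438 features were past it. Nothing is read from these member calls, because the members were chosen with this contrast known. Values near the floor limit what can be said of AT4G14330 in WT.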
